A study of Mus musculus with 6 samples.

Results

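The transcripts described are those of the NFAT transcription factors Nfatc1, Nfatc2 and Nfatc3 and of the calcineurin subunits Ppp3ca, Ppp3cb, Ppp3cc and Ppp3r1. They were taken as all probe sets annotated to 1 of these 7 symbols alone, which gave 10 probe sets among the 8251 genes that the array names. RNA of whole splenic B cells from adult mice was hybridised to 6 Affymetrix MG_U74Av2 arrays, 2 for each of 3 groups. Btk KO mice carried the Btk knockout after 9 generations of back-crossing from SW129 to CBA. Xid mice were of the CBA/N strain, whose Btk, the Tec family kinase of the B cell receptor, carries the R28C substitution. The third group was wild type CBA. Each group had 1 array in a first run and 1 in a second run made with new RNA from new mice. It is not stated whether single or pooled animals gave each RNA, how the B cells were purified, or which part of Btk the knockout removes. Xid and CBA are separate strains, so the mutation and other strain differences cannot be told apart, and the same holds for whatever the back-crossing left in Btk KO. With 2 arrays a group, precision is limited throughout.

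Calcineurin and NFAT form the calcium arm below Btk. Antigen binding to the B cell receptor lets Btk activate phospholipase C gamma 2, the inositol trisphosphate it makes opens calcium stores, and calcium with calmodulin switches on calcineurin, a phosphatase made of a catalytic A subunit and a calcium-binding B subunit. Calcineurin removes phosphates from cytoplasmic NFAT proteins, which then enter the nucleus and act with partners such as AP-1. This control is on protein location, and neither protein location nor calcineurin activity was measured here. Nfatc1 differs from its relatives in that activation of lymphocytes also induces its transcription, from a promoter that yields a short isoform, and it is needed for the B-1a cell population.

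Btk itself measured 276.1 and 173.6 in Btk KO, 841 and 643.9 in Xid and 874.1 and 749.8 in CBA (scaled intensity units, runs 1 and 2), so both Btk KO arrays lay below the other 4. The difference from CBA was -1.86 ± 0.27 on the log2 scale (SE; limma adjusted p = 0.052, and 0.0053 with the run as a block). Where its probes lie relative to the deleted part is not known here. The median intensity was 32.5 to 37.6 on the 6 arrays. In RNA quality 1 array, that of Btk KO in run 1, was unlike the rest, and it was hybridised on a day of its own. Its Gapdh control had a 3' to 5' ratio of 10.4, against 0.756 to 1.61 on the other 5 arrays, and its beta-actin control a ratio of 3.61 against 1.10 to 1.66. Among those 5 arrays both ratios also followed the run. In run 1 Gapdh gave 1.61 in Xid and 1.16 in CBA, and beta-actin 1.66 in each. In run 2 Gapdh gave 0.832 in Btk KO, 0.868 in Xid and 0.756 in CBA, and beta-actin 1.22, 1.10 and 1.15. Without this array Btk differed by -2.18 in Btk KO, and by -2.03 with the run as a block (limma adjusted p = 0.049 and 0.0081). The differences of the 7 genes between Btk KO and CBA, and the calls of pathway and marker lists, are given with and without it.

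Nfatc1, an NFAT factor whose gene is itself switched on by antigen receptor signals, was the member with the widest gap between groups. Its single probe set (102209_at) measured 80.8 and 183.5 in Btk KO, 107.3 and 176.7 in Xid, and 322.7 and 578.5 in CBA (runs 1 and 2). All 4 arrays of the mutant lines lay below both CBA arrays, while Btk KO and Xid overlapped. The means were 132 ± 72.6 in Btk KO, 142 ± 49.1 in Xid and 451 ± 181 in CBA (SD, n = 2 each), so Btk KO stood at 29.3% and Xid at 31.5% of the CBA level. In that order Btk KO and Xid did not differ beyond their spread, and CBA lay above both.

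**Figure D1:**
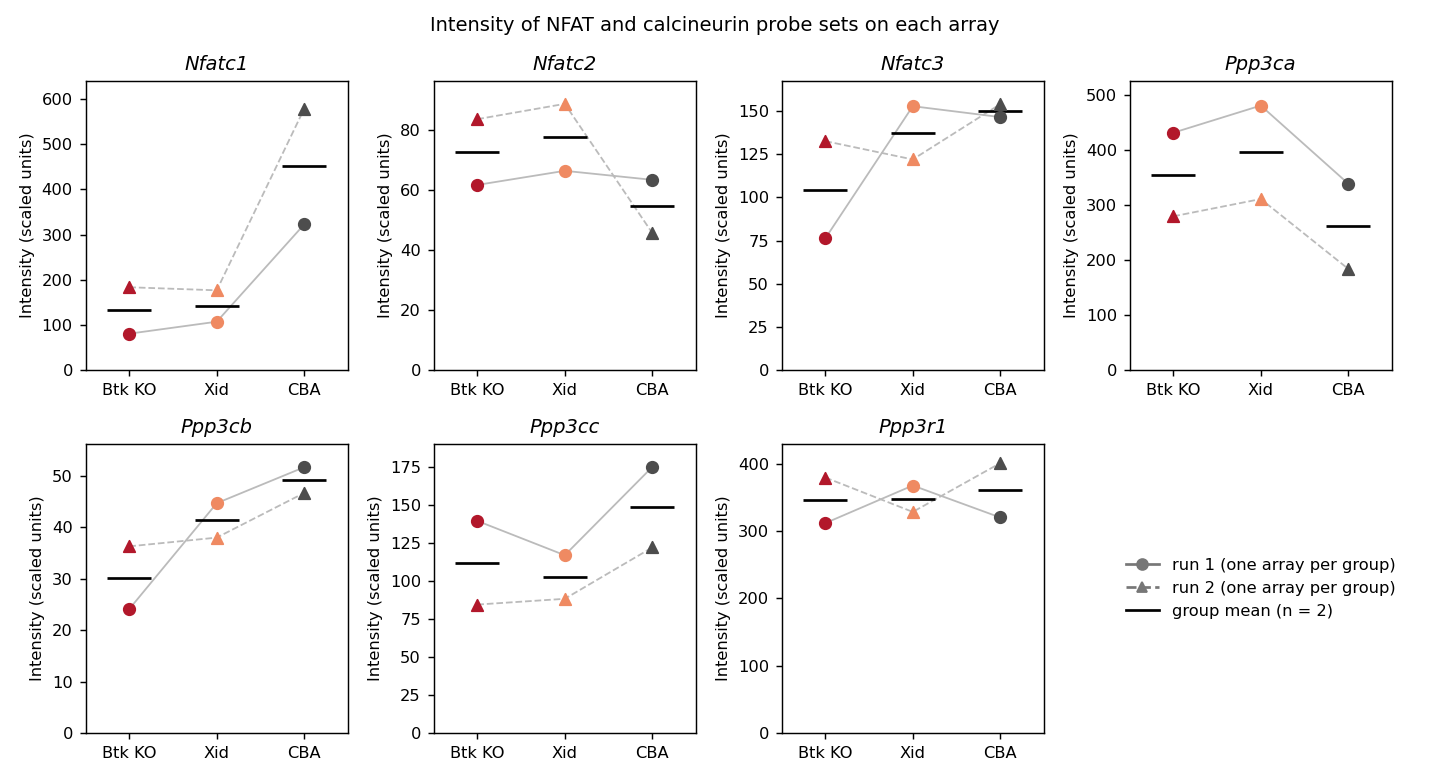
Intensity (scaled units, linear axis from 0) of the brightest probe set of each gene on the 6 arrays, with Btk KO, Xid and CBA from left to right. Circles are run 1, triangles run 2, grey lines join arrays of 1 run and black bars are group means (n = 2). Nfatc1 is lower on the 4 mutant arrays (80.8 to 183.5) than on both CBA arrays (322.7 and 578.5) and is higher in run 2 in every group.

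The Nfatc1 level also moved with the run: run 2 exceeded run 1 by 1.13 in Btk KO, 0.69 in Xid and 0.83 in CBA (log2 differences). Within a run the gap was steady. Btk KO differed from CBA by -1.92 in run 1 and -1.63 in run 2, and Xid differed from CBA by -1.54 and -1.68. In run 2 the Gapdh 3' to 5' ratio was 0.832 in Btk KO, 0.868 in Xid and 0.756 in CBA. Whether RNA quality had a part in the lower Nfatc1 level of run 1, or in the wider gap of run 1 in Btk KO, was not tested.

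For Btk KO against CBA the Nfatc1 difference was -1.77 ± 0.44 (SE; 95% interval -2.81 to -0.73). It did not pass limma without the run block (adjusted p = 0.24) and fell with it (SE 0.18, 95% interval -2.20 to -1.35, adjusted p = 0.0064). Without the Btk KO array of run 1 the difference was -1.21 without the block and -1.59 with it (limma adjusted p = 0.49 and 0.015). Without the Btk KO array of run 2 it was -2.34, which passed without the block (limma adjusted p = 0.041), but Btk KO is then represented by the array whose Gapdh ratio was 10.4. For Xid against CBA the difference was -1.61 ± 0.44 (95% interval -2.65 to -0.57), and limma gave adjusted p = 0.58 without the block and 0.019 with it. Over both mutant lines the difference from CBA was -1.69 ± 0.38, with limma adjusted p = 0.22 without the block and 0.0054 with it. Btk KO and Xid share the CBA arrays, so their differences from CBA are not independent of each other.

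Set directly against Xid, Nfatc1 in Btk KO differed by -0.17 ± 0.44 (limma adjusted p = 0.998, or 0.88 when blocked by run). The within-run values were -0.38 and 0.053, of opposite sign. With the block the 95% interval ran from -0.59 to 0.26, so a difference between the mutant lines of up to about that size is not shown to be absent.

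Among the 7453 probe sets tested, Nfatc1 ranked 16 by p in Btk KO against CBA and 10 in Xid against CBA with the run block. Without it the ranks were 143 and 99. In Btk KO against CBA 0 of the 7 tested members passed limma without the block, where 0.174% of all probe sets passed, and 1 of 7 had an unadjusted p under 0.05, against 8.83% of all. With the block 1 of 7 fell, where 2.23% of all probe sets passed and 0.805% fell. In Xid against CBA 0 of 7 passed without the block, against 0.0671% of all probe sets, and 1 of 7 had an unadjusted p under 0.05, against 4.43%. With the block 1 of 7 fell, where 0.483% of all passed and 0.121% fell. In both comparisons the member that passed was Nfatc1. Over both mutant lines against CBA 0 of 7 passed without the block, against 0.148%, and 1 had an unadjusted p under 0.05, against 7.37%. With the block 1 of 7 fell, where 1.93% of all passed and 0.644% fell. In Btk KO against Xid 0 of 7 passed in either limma fit, against 0.0403% of all probe sets without the block and 0.188% with it (0.0805% lower). None had an unadjusted p under 0.05 without the block (0 of 7), against 3.61% of all.

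**Figure D2:**
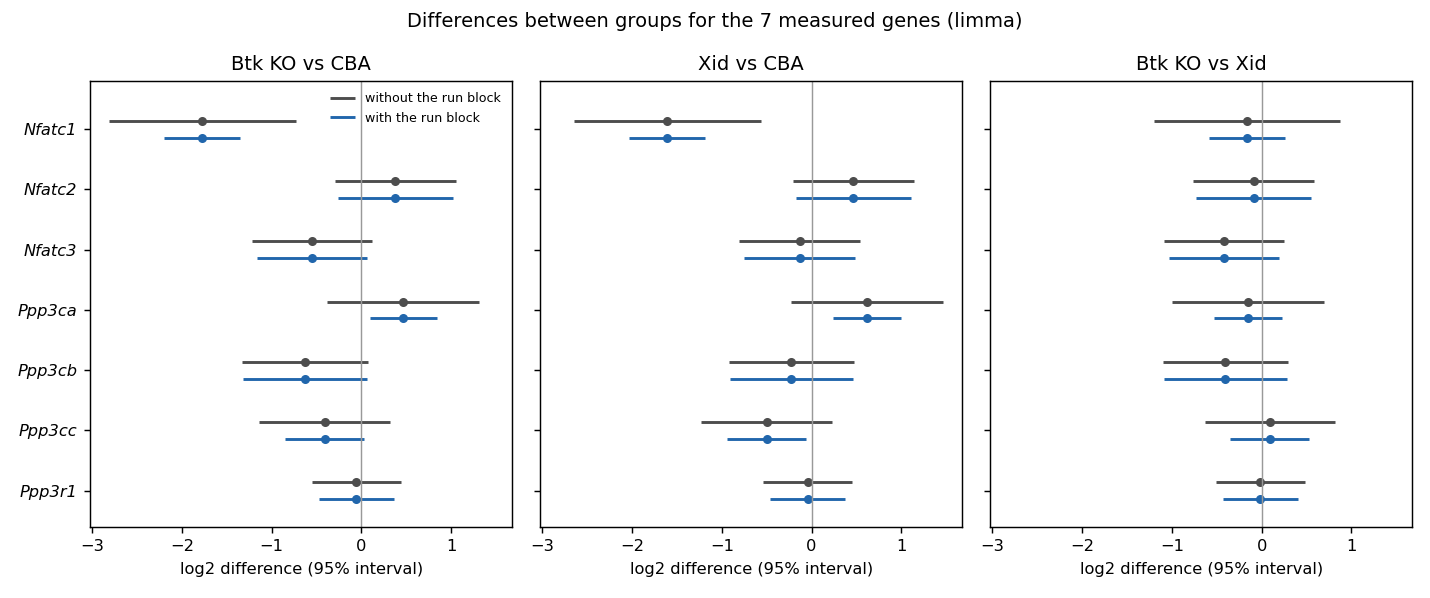
Log2 differences with 95% intervals from limma for the 7 genes in 3 comparisons, without (grey) and with (blue) the run as a block. For Nfatc1 the intervals lie below 0 in both comparisons with CBA (with the block -2.20 to -1.35 in Btk KO and -2.03 to -1.18 in Xid) and span 0 between the mutant lines. With the block the Ppp3ca intervals lie above 0 (0.091 to 0.84 in Btk KO and 0.24 to 0.99 in Xid). That of Ppp3cc in Xid lies below 0 (-0.94 to -0.061). Neither of these genes passed after adjustment.

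Nfatc2, the NFAT factor long known from resting T cells and present in B cells without induction, did not share this pattern. Its brightest probe set (93073_at) measured 61.7 and 83.6 in Btk KO, 66.4 and 88.7 in Xid, and 63.4 and 45.7 in CBA. Both Xid arrays lay above both CBA arrays, and Btk KO overlapped with CBA. The differences from CBA were 0.38 ± 0.29 in Btk KO and 0.47 ± 0.29 in Xid, with limma adjusted p = 0.80 and 0.999 (0.59 and 0.83 with the run block). They came from run 2 (0.79 in Btk KO and 0.87 in Xid), since run 1 gave -0.036 and 0.061. The difference in Btk KO was 0.58 without its array of run 1. The other Nfatc2 probe sets, 93075_r_at and 93074_g_at, read 6.4 to 14.7 on all arrays and were too dim to test.

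Nfatc3, the NFAT factor best known from thymocytes, measured 76.2 and 132.5 in Btk KO, 152.7 and 121.9 in Xid, and 146.4 and 153.9 in CBA (probe set 97975_at). Both Btk KO arrays lay below both CBA arrays, and Xid overlapped with each of the other groups. The difference of Btk KO from CBA was -0.55 ± 0.29 (limma adjusted p = 0.67, and 0.39 with the run block). It was -0.89 in run 1 and -0.21 in run 2, and -0.17 without the Btk KO array of run 1. Xid differed from CBA by -0.13 ± 0.29 (limma adjusted p = 0.999). A dim Nfatc3 probe set, 102050_at, read 3.2 to 14.3 and was not tested.

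Of the catalytic subunits of calcineurin, 0 of 3 passed limma in either fit, and none of the 3 had an unadjusted p under 0.05 without the run block. Ppp3ca, the alpha isoform, measured 431 and 279.3 in Btk KO, 480.3 and 310.7 in Xid, and 338.5 and 183.9 in CBA (probe set 95092_at). The groups overlapped across runs because run 2 was lower throughout, by 0.62 in Btk KO, 0.62 in Xid and 0.86 in CBA. Within each run both mutant arrays lay above the CBA array. Btk KO differed from CBA by 0.34 and 0.59 in runs 1 and 2, and Xid by 0.50 and 0.74. The pooled differences were 0.47 ± 0.36 and 0.62 ± 0.36, and limma gave adjusted p = 0.80 and 0.999, or 0.22 and 0.25 when blocked by run. Without the Btk KO array of run 1 the Btk KO difference was 0.16 without the block and 0.53 with it.

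Ppp3cb, the beta isoform, which T cells are known to need, measured 24.1 and 36.3 in Btk KO, 44.7 and 38 in Xid, and 51.7 and 46.7 in CBA (probe set 97989_at). The groups did not overlap with one another, in the order Btk KO, Xid, CBA from low to high. These levels lie near the cut-off for dim probe sets, a mean intensity of about 19.8. The difference of Btk KO from CBA was -0.63 ± 0.30 (limma adjusted p = 0.62, and 0.38 with the run block), at -0.94 in run 1 and -0.32 in run 2, and it was -0.38 without the Btk KO array of run 1. Xid differed from CBA by -0.22 ± 0.30 and Btk KO from Xid by -0.40 ± 0.30 (limma adjusted p = 0.999 and 0.998), so no step in that order passed.

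Ppp3cc, the gamma isoform, known for its high level in testis, measured 139.6 and 84.5 in Btk KO, 117 and 88.3 in Xid, and 175.1 and 122.1 in CBA (probe set 160948_at). Both Xid arrays lay below both CBA arrays, and Btk KO overlapped with CBA across runs. Within the runs it lay below CBA in each, by -0.31 and -0.50 in Btk KO and by -0.56 and -0.44 in Xid. The pooled differences were -0.41 ± 0.31 and -0.50 ± 0.31, with limma adjusted p = 0.80 and 0.999 (0.37 and 0.52 with the run block). Leaving out the Btk KO array of run 1 gave -0.75 in Btk KO without the block and -0.53 with it.

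Ppp3r1, the calcium-binding regulatory subunit that all catalytic isoforms share, measured 311.6 and 379.4 in Btk KO, 367.5 and 328.3 in Xid, and 320 and 400.8 in CBA (probe set 99183_at). The 3 groups overlapped. Btk KO differed from CBA by -0.058 ± 0.21 (95% interval -0.55 to 0.44) and Xid by -0.043 ± 0.21 (-0.54 to 0.45). These intervals leave out a change as large as that of Nfatc1 in the same comparison. The Btk KO difference was 0.082 without the array of run 1.

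Counted over the 7 members, 3 lay lower in Btk KO than in CBA without overlap of the arrays (Nfatc1, Nfatc3 and Ppp3cb), against 16% of all probe sets, and 0 lay higher, against 20%. In Xid 3 lay lower (Nfatc1, Ppp3cb and Ppp3cc) and 1 higher (Nfatc2), against 14.4% and 17% of all. With both mutant lines against CBA it was 2 (Nfatc1 and Ppp3cb), against 7.31%, with 0 higher, against 9.82%. In Btk KO against Xid it was 1, Ppp3cb, against 12.3%, with 0 higher, against 14.2%. The median difference of the members was -0.41 in Btk KO and -0.13 in Xid, where the median of all probe sets was 0.010 and 0.0063.

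Nfatc1 was next set against each of the other 6 genes within the same array, which removes only what an array does to both alike. What an array or run does to them unequally stays in the ratio. In CBA the ratio to Ppp3ca, relative to its mean, was -0.84 in run 1 and 0.84 in run 2. All 4 mutant arrays had a lower log2 ratio than both CBA arrays for 5 of the 6 genes, the exception with the runs pooled being Ppp3cc. Within each run the Ppp3cc ratio too was lower in the mutant arrays. After the mean of the CBA arrays was taken off, it was -2.27 in Btk KO and -1.64 in Xid against -0.66 in CBA in run 1. In run 2 it was -0.46 and -0.57 against 0.66. Relative to the CBA mean, the ratio to Ppp3r1 was -2.14 and -1.29 in Btk KO and -1.99 and -1.14 in Xid, while the CBA arrays lay at -0.26 and 0.26. The mean shift of the 4 mutant arrays was -1.64 for Ppp3r1, -2.11 for Nfatc2, -1.35 for Nfatc3, -2.23 for Ppp3ca, -1.26 for Ppp3cb and -1.24 for Ppp3cc. In two-sided exact permutation tests of 4 against 2 arrays, p was 0.067 for Nfatc2, Nfatc3, Ppp3cb and Ppp3r1, which is the smallest value this design can give, 0.13 for Ppp3ca and 0.27 for Ppp3cc. After adjustment over the 6 ratios these exact values were 0.10 for the first 4, 0.16 for Ppp3ca and 0.27 for Ppp3cc. A test of 4 against 2 arrays cannot reach 0.05, it takes no account of the runs, and all 6 ratios share the Nfatc1 values already described, so the ratios are a description.

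**Figure D3:**
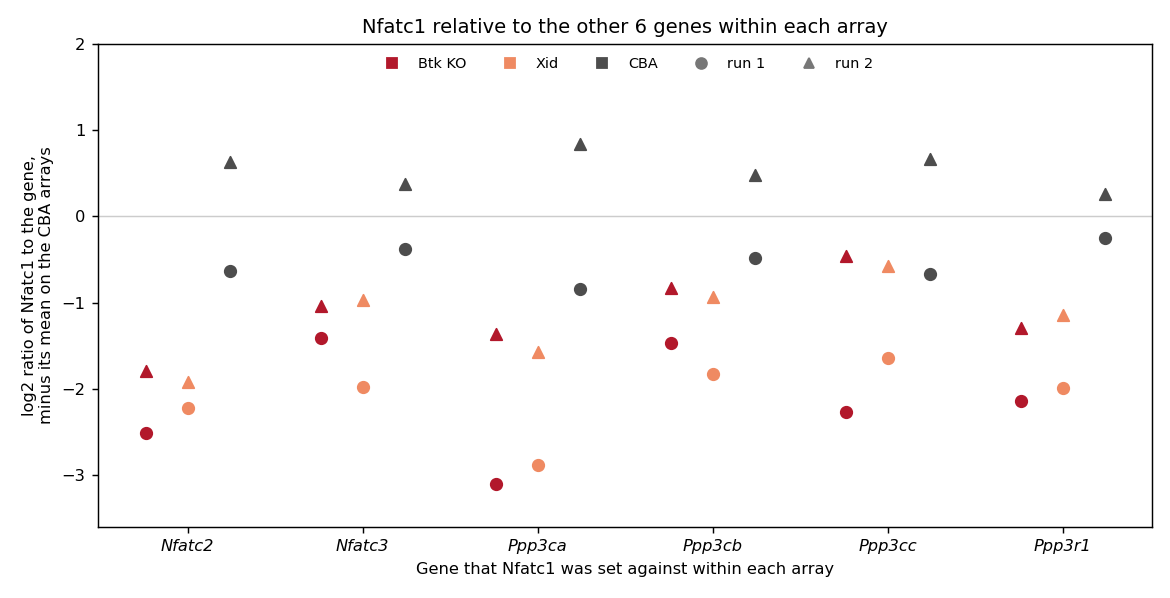
Log2 ratio of Nfatc1 to each of the other 6 genes on each array, minus the mean ratio of the CBA arrays, so that 0 is the CBA mean. Red, orange and grey are Btk KO, Xid and CBA, circles run 1 and triangles run 2. For Ppp3r1 the mutant arrays lie between -2.14 and -1.14 and the CBA arrays at -0.26 and 0.26.

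Markers of B cells and of other cell types were read on the same arrays. B cell markers were bright throughout, and 9 of a list of 10 had a probe set. Their summed intensity was 17509 and 16873 in Btk KO, 24642 and 19202 in Xid, and 24190 and 24831 in CBA, and 0 of 9 passed limma in either fit for Btk KO (0 of 9 in Xid with the run block). Cd79a, a chain of the receptor, differed from CBA by -0.69 in Btk KO and -0.19 in Xid, and Ms4a1 by -0.27 and 0.041. Measured against the mean of these 9 markers on each array, the Nfatc1 difference from CBA was -1.27 in Btk KO and -1.37 in Xid (limma adjusted p = 0.0070 and 0.015 with the run block, and 0.14 and 0.59 without it). On that scale the median of all probe sets was 0.51 in Btk KO and 0.24 in Xid. With the block 1857 of the 7453 probe sets tested passed limma on it in Btk KO, and 81 in Xid. Ppp3ca rose in Btk KO with the block (0.96, limma adjusted p = 0.012), but among so many calls this does not set it apart. In bulk RNA fewer cells of a type and less RNA per cell cannot be told apart.

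Macrophage markers, all 13 of which had a probe set, summed to 5469 and 8024 in Btk KO, 3709 and 5913 in Xid, and 1679 and 2384 in CBA. With the run block 8 of the 12 tested rose in Btk KO and 5 in Xid, against 2.23% and 0.483% of all probe sets passing, and 3 rose in Btk KO without it, against 0.174%. The counts with the block were 8 and 7 when the Btk KO array of run 1 was left out. Lyz2 of myeloid cells differed from CBA by 0.82 in Btk KO and 0.26 in Xid. T cells, which also use NFAT, were faint: of 9 T cell markers with a probe set 5 were dim, and the list summed to 295.5 and 451 in Btk KO, 237 and 302 in Xid, and 164 and 349 in CBA. Of the 4 tested 0 passed in Btk KO, where Cd3e differed by 0.35, or in Xid with the block. Without the Btk KO array of run 1 the Cd3e difference in Btk KO was 1.13, and 0.97 with the block. Cd3e read 9.7 to 62.6 over all arrays. Neutrophil markers summed to 1180 and 1842 in Btk KO, 553 and 409.9 in Xid, and 467 and 404 in CBA, and S100a8 differed by 2.72 in Btk KO and -0.0024 in Xid. Of the 8 neutrophil markers tested 2 rose in Btk KO without the block and 4 with it, and 4 also rose with the block when the Btk KO array of run 1 was left out. NK cell markers summed to 808 and 1584 in Btk KO, 527 and 799 in Xid, and 342 and 481 in CBA. Of 8 tested, 4 rose in Btk KO with the block, 3 without the Btk KO array of run 1, and 0 without the block. Erythroid markers summed to 21975 and 10587 in Btk KO, 9107 and 7658 in Xid, and 5612 and 7646 in CBA. Hba-a1 differed by 1.04 and 0.29, and by 0.52 in Btk KO without its array of run 1. Of the 8 erythroid markers tested 0 passed in Btk KO in either fit, with or without that array, or in Xid with the block. No marker of these 6 lists with a probe set read 0 on any array. The part of these other cells in the NFAT and calcineurin values was not tested.

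Genes around calcineurin and NFAT were taken from 5 lists of 94 genes, of which 46 had a probe set bright enough to test, 19 were dim and 29 had no probe set with their symbol alone. The 4 comparisons are taken here as Btk KO against CBA, Xid against CBA, Btk KO against Xid and both lines against CBA. Without the run block 0 of 46 passed limma in each, where 0.174%, 0.0671%, 0.0403% and 0.148% of all probe sets passed. At an unadjusted p under 0.05 there were 4, 3, 2 and 5 of 46, against 8.83%, 4.43%, 3.61% and 7.37% of all. Each gene was counted by its brightest probe set. With the block the passing genes were Btk in Btk KO against CBA and against Xid, Btk and Ikzf1 over both mutant lines, and none in Xid (0 of 46). The background shares for these comparisons with the block were 2.23%, 0.188%, 1.93% and 0.483%. Without the Btk KO array of run 1 Btk alone passed with the block, in the same 3 comparisons, and without the block Btk passed in Btk KO against CBA.

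**Figure D4:**
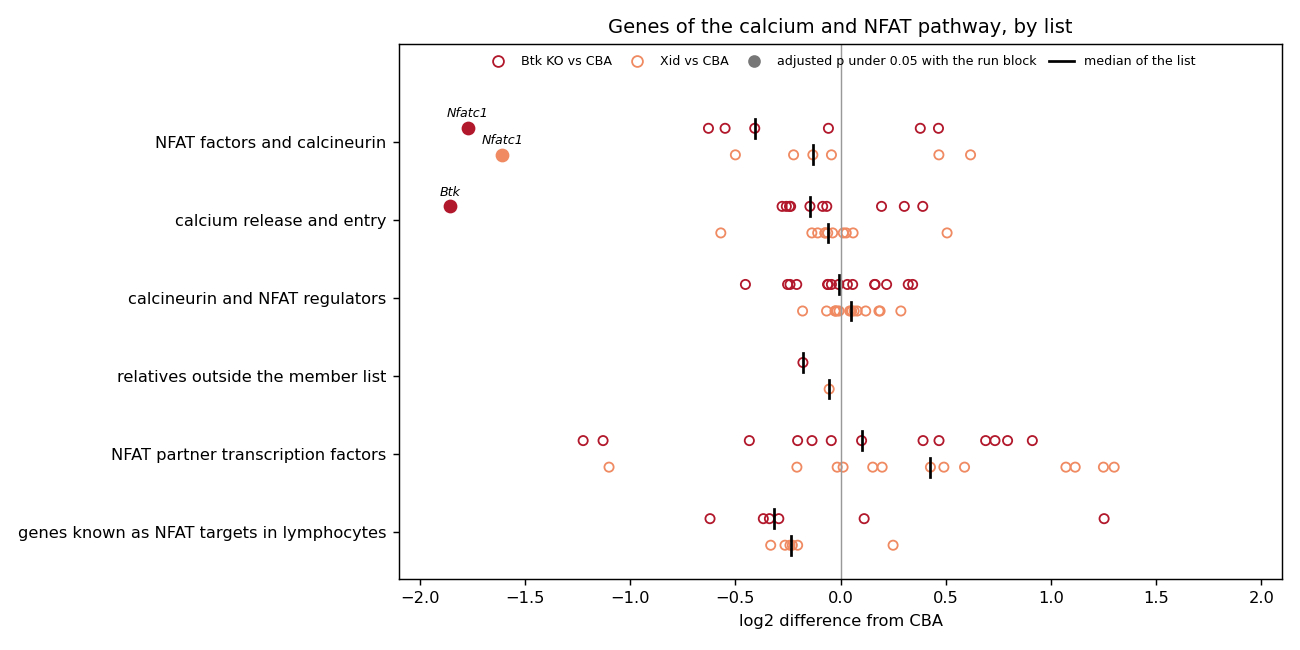
Log2 differences from CBA in Btk KO (red) and Xid (orange) for the 7 genes and for the 46 tested genes of 5 pathway lists, 1 circle a gene. Filled circles passed an adjusted p of 0.05 with the run block and black bars are list medians. Nfatc1 (-1.77 and -1.61) and Btk in Btk KO (-1.86) are the filled circles.

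Upstream of calcineurin, the list of calcium release and entry had 11 tested genes with a median of -0.15 in Btk KO and -0.061 in Xid. Apart from Btk none passed on its brightest probe set. The adaptor Blnk, which brings Btk to phospholipase C, measured 1695 and 882 in Btk KO, 1527 and 652 in Xid, and 1686 and 1306 in CBA. Its differences were -0.28 and -0.57, and those of a further Blnk probe set (100771_at) were -0.18 and -0.34. Calm2, which encodes calmodulin, read 21.7 to 48.4 and differed by 0.30 and 0.51. The adaptor Grb2 differed by -0.24 and -0.11, and the calcium pump gene Atp2a3 by -0.24 and -0.038 on its brightest probe set.

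Regulators of calcineurin and NFAT had 15 tested genes with a median of -0.0086 in Btk KO and 0.051 in Xid, and 0 passed in either limma fit of the 4 comparisons (0 at an unadjusted p under 0.05). The kinase genes Dyrk1a and Gsk3a have products that phosphorylate NFAT and so favour its export from the nucleus. On their brightest probe sets they differed by 0.34 and -0.24 in Btk KO and by 0.051 and -0.18 in Xid. A further Dyrk1a probe set (92383_at) differed by -0.24 in Btk KO and -0.20 in Xid, so the Dyrk1a sets do not share a direction. Mapk8, the kinase JNK1, differed by 0.32 and 0.19. Its Btk KO difference was 0.65 in run 1 and -0.0074 in run 2, and -0.023 without the Btk KO array of run 1. Homer3, a scaffold that competes with calcineurin for NFAT, differed by 0.16 and 0.29. Of the relatives of the NFAT family only Rela, the NF-kB subunit, was tested (-0.18 and -0.054).

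Transcription factors known beside NFAT at lymphocyte genes had 13 tested members, with a median of 0.10 in Btk KO and 0.43 in Xid. Ikzf1, the lymphoid factor Ikaros, measured 19.3 and 90.5 in Btk KO, 28.8 and 77.2 in Xid, and 64 and 184.2 in CBA. Each mutant array lay below the CBA array of its run, by -1.47 and -0.98 in Btk KO and by -1.01 and -1.19 in Xid. Over both lines the difference was -1.16 ± 0.64 (limma adjusted p = 0.81 without the block and 0.047 with it). With the block but without the Btk KO array of run 1 it was -1.02 and did not pass (limma adjusted p = 0.054). A further Ikzf1 probe set (102294_at) differed by -0.39 in Btk KO and 0.48 in Xid. Without the Btk KO array of run 1 its Btk KO difference was 0.36, and 0.47 with the block. The Ikzf1 probe sets thus do not share a direction in Xid, nor in Btk KO once that array is left out.

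The AP-1 genes Fos and Jun, whose products bind DNA together with NFAT, had their higher values in the mutant lines. Fos measured 1254 and 786 in Btk KO, 1863 and 957 in Xid, and 517 and 728 in CBA, and Jun measured 113 and 97 in Btk KO, 199.9 and 89.1 in Xid, and 41.8 and 66.5 in CBA. Neither gene overlapped with CBA. Of all probe sets 20% lay above CBA without overlap in Btk KO, 17% in Xid and 9.82% over both lines. Neither gene passed limma (adjusted p = 0.68 and 0.56 in Btk KO and 0.82 and 0.72 in Xid, and 0.37, 0.30, 0.31 and 0.33 with the run block). In run 1 Fos differed by 1.27 in Btk KO and 1.84 in Xid, and in run 2 by 0.11 and 0.39. Without the Btk KO array of run 1 the Btk KO difference was 0.35 for Fos and 0.81 for Jun. Other tested AP-1 genes were mixed in Btk KO, with Junb at -0.14, Jund at -0.044, Fosb at 0.79 and Batf at 0.47. In Xid they differed by 0.59, 0.20, 1.30 and 1.07. Irf8, an interferon regulatory factor of B and myeloid cells, differed by 0.73 and 0.49. Mef2c, a calcium-responsive factor of B cells, differed by -1.13 in Btk KO and 0.012 in Xid on its brightest probe set (limma adjusted p = 0.22 and 0.999, and 0.070 and 0.99 with the block), and Btk KO against Xid did not pass either (-1.14, adjusted p = 0.78, and 0.30 with the block).

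Of 24 genes known as NFAT targets in lymphocytes 13 were dim and 5 had no probe set with their symbol alone, so 6 were tested. The dim ones included most cytokines on the list. Il2 read at most 1.2 on any array, Il4 20.6, Il10 13.9 and Ifng 18.5. The 6 tested genes had a median of -0.32 in Btk KO and -0.24 in Xid, and 0 passed in either limma fit (1 at an unadjusted p under 0.05 in Btk KO, Fasl, and 0 in Xid). Fasl, the death ligand of NK and T cells, measured 38.8 and 61 in Btk KO, 12.5 and 34.4 in Xid, and 12.3 and 22.9 in CBA. It differed from CBA by 1.25 in Btk KO (limma adjusted p = 0.50, and 0.11 with the run block) and 0.25 in Xid. The summed NK cell markers were also higher in Btk KO, and the part of NK cells in the Fasl values was not tested. Dgka, a diacylglycerol kinase, differed by -0.34 and -0.26, and Cdk4 by -0.29 and -0.23. Tnf differed by -0.62 and -0.33, but its runs had opposite signs and the groups overlapped. In runs 1 and 2 the Tnf difference was 0.80 and -2.04 in Btk KO, and 0.54 and -1.21 in Xid. A further Cdk4 probe set (101017_at) differed by -0.024 in Btk KO and 0.28 in Xid, so the Cdk4 sets do not share a direction in Xid.

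The 5 named genes most like Nfatc1 across the 6 arrays, by Pearson correlation of log2 values, were Cfap20 (0.991), Hdac1 (0.988), Sra1 (0.987), Cdc26 (0.987) and Daxx (0.983). In all, 6 of 6670 other named probe sets exceeded 0.98. The 6 arrays share 2 runs and 3 groups, so the likeness is a description. These genes were picked for their likeness on the same arrays, so their lower values in the mutant lines follow from the choice. The differences and p-values below are therefore a description too. Hdac1, a histone deacetylase, measured 109.2 and 149.8 in Btk KO, 128.7 and 168 in Xid, and 197.8 and 250.8 in CBA. Its difference from CBA was -0.77 in Btk KO and -0.58 in Xid, less than that of Nfatc1. Daxx, a histone chaperone, differed by -0.39 and -0.34 and Sra1 by -0.64 and -0.61, while Cfap20 and Cdc26 differed by 0.30 or less in size. None of these 5 passed limma in either fit of the 4 comparisons (0 called; unadjusted p under 0.05 for Hdac1 in Btk KO and over both lines and for Sra1 over both lines without the block).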

How the data were processed

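Expression was measured on 6 arrays. The authors deposited linear intensities, 1 for each probe set on each array, scaled so that the 2% trimmed mean was 100.06 on each array; the summary method is not given in the sources used here. Array headers gave chip lots and days only. Of 12488 probe sets 66 are controls, and 10833 carry 1 symbol, 396 several and 1193 none; 10817 symbols were matched by gene number in a table of GRCm38.p6, used for names only. Before taking log2, 6 was added as a pseudocount, which is the 20th percentile over the table. Probe sets with a mean below the 40th percentile were left out as dim, which kept 7453. Groups were compared with limma 3.58.1 (R 4.3.3; lmFit, eBayes with an intensity trend, 3 group means over all 6 arrays, 3 residual degrees of freedom), two-sided, with Benjamini-Hochberg adjustment over the 7453 probe sets at 0.05. The script was tested on simulated data. Figures used matplotlib 3.10.9.

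The replicate numbers mark runs: the design label names a second set of chips with new RNA, and per the file headers each run had its own chip lot. Differences between runs correlated across probe sets between groups (0.44 for Btk KO with Xid, 0.37 for Btk KO with CBA, 0.31 for Xid with CBA), so values with the run as a block stand beside calls that they change. All p-values measure only the spread between these samples.

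The 7 genes, the pathway and marker lists and the tests were chosen with earlier results of these data known. Named were Btk, the 7 genes, each list gene that passed in any comparison and up to 4 more per list by smallest p over both lines, each by its brightest kept probe set, 6 lineage markers, and 5 genes most like Nfatc1. Alternatives were the block, normalization, pseudocount, filter, trend, groups in the fit and each array left out, and, added after seeing the data, centring on B cell markers and the block without the Btk KO array of run 1.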

Additional observations from a re-analysis of the deposited data

How the results depend on the processing

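The Nfatc1 difference from CBA kept its sign in Btk KO, in Xid and over both lines under every alternative, and 14 of 21 member differences from CBA did so. With the replicate block Nfatc1 passed at -1.77, -1.61 and -1.69 (Btk KO, Xid, both lines), which made the count of members 1 in each. The block without Btk KO of run 1 gave -1.59, -1.61 and -1.60 and again 1 member in each, and the block with B cell marker centring gave -1.27, -1.37 and -1.32 and 2, 1 and 2 members. With single arrays left out Nfatc1 lay between -2.34 and -1.21 in Btk KO, and the count of members was 0 to 1. On the main scale the block changed no other call of a member. With B cell marker centring it also brought in Ppp3ca in Btk KO and over both lines. In that setting 1857, 81 and 748 of the 7453 probe sets passed (Btk KO, Xid, both lines), so the Ppp3ca calls came among many others.

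Counts over all probe sets moved widely and are given for Btk KO against CBA, Xid against CBA, Btk KO against Xid and both lines against CBA, where the main counts were 13, 5, 3 and 11. They were 166, 36, 14 and 144 with the block, 91, 76, 12 and 165 with the block without Btk KO of run 1, and 1857, 81, 20 and 748 with the block and B cell marker centring. Single arrays left out gave 0 to 145, 0 to 9, 0 to 29 and 0 to 39. Leaving out either CBA array or Xid of run 1 gave 0 in all 4, and leaving out Xid of run 2 gave 0, 1, 1 and 0. For Btk KO against CBA the count was 7 with quantile normalization, 8 with median centring, 24 with a pseudocount of 32, 8 without a filter, 29 with the filter at the 60th percentile, 0 without the intensity trend, 0 with only the groups compared and 46 with B cell marker centring. For Xid against CBA it was 3 with a pseudocount of 1, 8 with 32 and 9 with only the groups compared. For Btk KO against Xid it was 1 with quantile normalization, 8 with a pseudocount of 32 and 0 with only the groups compared. Over both lines it was 7 with median centring (3 higher and 4 lower, against 7 and 4), 0 without the trend and 25 with B cell marker centring (21 and 4). In Btk KO against Xid quantile normalization gave 0 higher and 1 lower, against 2 and 1. The cause of these shifts was not tested. Median centring moved the median of all probe sets in Btk KO against CBA to -0.10.

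Of the 21 member differences from CBA, 7 changed sign under at least 1 alternative, as did several between Btk KO and Xid. With B cell marker centring, with or without the block, Btk KO differed from CBA by 0.091 for Ppp3cc and 0.44 for Ppp3r1, and Xid by 0.10 for Nfatc3, 0.011 for Ppp3cb and 0.19 for Ppp3r1. Over both lines it gave 0.027 for Nfatc3 and 0.32 for Ppp3r1. Between Btk KO and Xid it gave 0.098 for Nfatc1, 0.18 for Nfatc2, 0.11 for Ppp3ca and 0.25 for Ppp3r1. Quantile normalization gave 0.014 for Ppp3r1 there. The block without Btk KO of run 1 gave 0.042 for Ppp3r1 in Btk KO against CBA, and between Btk KO and Xid 0.017 for Nfatc1, 0.12 for Nfatc2, 0.020 for Nfatc3, -0.030 for Ppp3cc and 0.085 for Ppp3r1. With single arrays left out, Ppp3r1 ranged from -0.22 to 0.10 in Btk KO, -0.20 to 0.12 in Xid and -0.21 to 0.11 over both lines, and Nfatc3 from -0.29 to 0.024 in Xid. Between Btk KO and Xid the ranges were -0.73 to 0.40 for Nfatc1, -0.29 to 0.11 for Nfatc2, -0.46 to 0.16 for Ppp3ca, -0.25 to 0.44 for Ppp3cc and -0.15 to 0.13 for Ppp3r1. Ppp3cb was below the filter at the 60th percentile and has no value there.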

Other observations

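Further probe sets of pathway genes, here and above, were named after their values were seen, as were the AP-1 genes Fosb, Junb, Jund and Batf. Atp2a3, a calcium pump of intracellular stores, has a bright probe set at 1749 to 2148 on all 6 arrays, but a weaker one (93403_at) read 6.4 and 151.7 in Btk KO, 21.6 and 319.3 in Xid and 71.1 and 381.7 in CBA. The weaker set was low in every array of run 1 and lowest on the Btk KO array with the Gapdh 3' to 5' ratio of 10.4. It passed limma in Btk KO against CBA with the run block (-1.97, adjusted p = 0.033, and 0.79 without it), but not once that array was left out (-1.60, adjusted p = 0.10 with the block). Another set (93404_g_at) had the same order of arrays within each run, at 10.3 and 247.8 in Btk KO, 33.4 and 390.8 in Xid and 127.6 and 493.6 in CBA. The part of RNA quality in these values was not tested.

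Mef2c had 4 tested probe sets, all lower in Btk KO than in CBA, at -1.13, -1.41, -1.08 and -0.73. Of these, 104591_g_at passed limma with the run block (adjusted p = 0.042, and 0.34 without it; 0.15 with the block but without the Btk KO array of run 1), measuring 29.9 and 79.4 in Btk KO, 85.2 and 126.8 in Xid and 126.7 and 158 in CBA. In Xid the 4 sets differed from CBA by 0.012, -0.42, 0.036 and -0.55 and none passed.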
